A study of Mus musculus with 60 samples.

Results

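R3 erythroblasts of Gata1s fetal liver were compared between embryonic day E14.5 and E12.5. The libraries were chosen by the column names of the deposited RNA table, which give the genotype, sort, day and a library prefix (MS in all 4): 2 Gata1s R3 libraries at E14.5 and 2 at E12.5, 4 of the 20 RNA libraries and of the 60 samples of the series. Gata1s embryos, on strain C57BL/6, make GATA1 as a short form that lacks the N-terminal part of the protein. R3 cells were sorted from fetal liver as high for CD71, the transferrin receptor, and high for Ter119, a surface antigen of late erythroid cells. The labels name no transgene, Cre or treatment, and do not give the number or sex of the embryos behind a library. Wild type C57BL/6 R3 cells sorted alike, 3 libraries at E12.5 and 2 at E14.5, were the reference for the genotype. Gata1s cells of the less mature R1/2 sort, high for CD71 and negative to medium for Ter119, with 4 libraries at E12.5 and 3 at E14.5, were the reference for the stage.

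GATA1 is the transcription factor that switches on red cell genes and silences progenitor genes such as Gata2. As an erythroblast matures it fills with hemoglobin, builds a spectrin membrane skeleton, stops making ribosomes, breaks down mitochondria, condenses its nucleus and expels it. In the mouse, primitive red cells from the yolk sac make embryonic globins, and the definitive red cells that the fetal liver produces make adult globins.

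RNA was read from poly-A selected, directional libraries. The values are the authors' normalised counts per gene, each a read count multiplied by 1 factor for its library, from which whole reads could be recovered. The E12.5 libraries held 13008082 and 11116685 reads and the E14.5 libraries 7563322 and 10626787. A single read was worth 1.15 and 1.37 normalised counts at E12.5 and 3.69 and 2.69 at E14.5, so low values at E14.5 rest on few reads. Libraries of the same day correlated at 0.989 across genes on the log2 scale, and libraries of different days at 0.902 to 0.916. The labels do not say that the libraries of a day came from separate embryos, so the spread behind the p-values is that between libraries and may be technical. In bulk samples, fewer cells of a type and less RNA per cell cannot be told apart.

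Below, the 2 values of a day are replicate 1 and replicate 2 in normalised counts. Many of the genes named were chosen for a small adjusted p or for days without overlap. Their lack of overlap between days follows from that choice and adds no support. Differences are E14.5 minus E12.5 of log2(normalised count + 1), given ± standard error, from limma fitted over all 20 RNA libraries. A gene was called, or said to have risen or fallen, when its Benjamini-Hochberg adjusted p from limma over all 8576 genes tested was under 0.05, and a p given alone is such an adjusted p.

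Late red cell genes rose and genes of ribosome production fell between the days. Of the 8576 genes tested, 3061 (35.7%) were called higher at E14.5 and 2764 (32.2%) lower. At least 2-fold changes were called for 1286 genes (15%) that rose and 810 (9.44%) that fell. edgeR on the recovered reads also called 2769 of the 3061 higher and 2746 of the 2764 lower, and called 2784 higher and 3017 lower in all. Quantile normalisation gave 2404 higher and 3204 lower. In wild type R3 cells 2207 genes (25.7%) were called higher and 1856 (21.6%) lower between the same days, which quantile normalisation turned to 1331 and 1820.

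The direction of a change depends on the scale. The normalised counts of a library summed to 14968302 and 15248899 at E12.5 and 27890655 and 28627730 at E14.5, and the median difference over all genes tested was 0.02. Scaled to the library total instead, an alternative added after the data were seen, the differences would move by -0.90 (in wild type R3 by -0.58), and 926 genes would be called higher and 6286 lower. The directions below are therefore relative to the middle of the genes and not to the total RNA of a cell.

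Among the genes that carry these changes, the adult beta globin and Alas2 rose and Bpgm rose further. Wdr43 fell with the genes of ribosome production, and the Gata1s libraries of Slc7a11 lay above every wild type library. The promoters of these 5 genes are shown so that their sequence can be set beside their values. Each is the 250 bases before the gene's start in RefSeq (GRCm38.p6), 5′ to 3′. Capitals mark GATA motifs, AGATAA or TGATAA, and KLF motifs, CCNCNCCC, the letters read by GATA factors and by Krüppel-like factors such as KLF1, found on either strand. No GATA match overlapped a KLF match, and overlapping KLF matches run together.
Beta-s, in RefSeq Hbb-bs, chr7:103827929-103828178, minus strand: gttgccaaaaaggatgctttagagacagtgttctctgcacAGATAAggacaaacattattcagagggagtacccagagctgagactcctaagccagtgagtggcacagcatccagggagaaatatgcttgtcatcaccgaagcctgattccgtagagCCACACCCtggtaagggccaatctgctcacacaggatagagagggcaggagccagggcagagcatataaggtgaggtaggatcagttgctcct
Alas2, chrX:150547167-150547416, plus strand: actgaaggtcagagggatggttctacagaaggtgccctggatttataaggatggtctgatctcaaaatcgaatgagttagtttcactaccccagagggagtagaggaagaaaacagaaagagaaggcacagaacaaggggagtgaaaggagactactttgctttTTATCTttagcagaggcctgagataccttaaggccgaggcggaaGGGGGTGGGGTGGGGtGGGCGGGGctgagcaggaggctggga
Bpgm, chr6:34476106-34476355, plus strand: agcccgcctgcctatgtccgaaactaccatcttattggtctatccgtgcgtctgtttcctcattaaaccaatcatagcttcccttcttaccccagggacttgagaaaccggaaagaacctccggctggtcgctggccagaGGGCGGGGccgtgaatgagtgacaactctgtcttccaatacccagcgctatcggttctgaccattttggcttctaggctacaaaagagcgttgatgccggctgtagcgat
Wdr43, chr17:71615965-71616214, plus strand: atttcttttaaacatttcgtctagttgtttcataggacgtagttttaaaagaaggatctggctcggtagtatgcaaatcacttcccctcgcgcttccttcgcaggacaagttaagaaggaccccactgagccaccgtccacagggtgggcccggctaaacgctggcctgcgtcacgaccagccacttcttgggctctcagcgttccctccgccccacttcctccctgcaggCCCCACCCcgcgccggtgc
Slc7a11, chr3:50443614-50443863, minus strand: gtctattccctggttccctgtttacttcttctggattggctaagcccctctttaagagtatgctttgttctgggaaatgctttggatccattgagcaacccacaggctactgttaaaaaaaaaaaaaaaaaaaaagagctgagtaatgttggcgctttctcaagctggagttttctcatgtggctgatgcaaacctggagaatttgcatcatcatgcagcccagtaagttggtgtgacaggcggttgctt
The windows of Beta-s and Alas2 held a GATA motif and a KLF motif each, those of Bpgm and Wdr43 a KLF motif, and that of Slc7a11 neither. Of all 32851 windows in the table, 16.6% held a GATA motif and 45.9% a KLF motif. A match is a run of letters and shows no binding. Because 76.4% of the genes tested matched the table by symbol, the share of motifs among called genes was not compared.

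Adult beta globin rose. Beta-s, the adult beta globin gene Hbb-bs, had 371678 and 440389.8 normalised counts at E12.5 and 3006962 and 2578468 at E14.5. These are 2.48 and 2.89% of all normalised counts at E12.5 and 10.8 and 9.01% at E14.5, so both later libraries lay far above both earlier ones. The difference was 2.78 ± 0.40 (adjusted p = 1.62e-05). Quantile normalisation set it to 0, since this gene ranked highest in each of the 4 libraries. Reads of near-identical adult globin copies may be split among them, and adult alpha globin, whose entries were at or near 0, is not reported. In wild type R3 Beta-s stood at 1390115 ± 329434 (SD, n = 3) at E12.5 and 3787136 ± 564919 (SD, n = 2) at E14.5, and the day changes of the genotypes differed by 1.44 ± 0.54, which missed the threshold (adjusted p = 0.0597). Hbq1a, a theta globin of low level, had 43.7 and 30.2 normalised counts at E12.5 and 449.9 and 477 at E14.5 and rose by 3.64 ± 0.65 (adjusted p = 0.000141).

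The embryonic globins were less clear, because the libraries of a day lay apart. Of the 3 genes, 1 was called lower. Hba-x, the zeta globin of primitive red cells, had 18103 and 8403 normalised counts at E12.5 and 1173 and 2864 at E14.5, with no overlap between days. It fell by 2.75 ± 1.00 (adjusted p = 0.0225), a call lost without E12.5 replicate 1 (adjusted p = 0.141), without E14.5 replicate 1 (adjusted p = 0.151) and with robust eBayes (adjusted p = 0.0565). Hbb-y, epsilon globin, had 25387 and 8196 normalised counts at E12.5 and 1840.1 and 3537 at E14.5, also without overlap. Its difference of -2.50 ± 1.11 missed the threshold in limma (adjusted p = 0.0558) and passed it in edgeR (adjusted p = 0.0393), in DESeq2 (adjusted p = 0.0302) and in limma over the 9 R3 libraries alone (adjusted p = 0.00465). Hbb-bh1, the third embryonic globin, had 50442 and 38422 normalised counts at E12.5 and 23029 and 45899 at E14.5. Its days overlapped, and its difference was -0.44 ± 0.63 (adjusted p = 0.552). Wild type R3 held Hbb-y at 289617 ± 191174 (SD, n = 3) at E12.5 and 16163 ± 20073 (SD, n = 2) at E14.5. The genotypes' day changes differed by 2.29 ± 1.50 for Hbb-y (adjusted p = 0.266) and by 2.17 ± 1.35 for Hba-x (adjusted p = 0.242), neither of which was called.

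**Figure D1:**
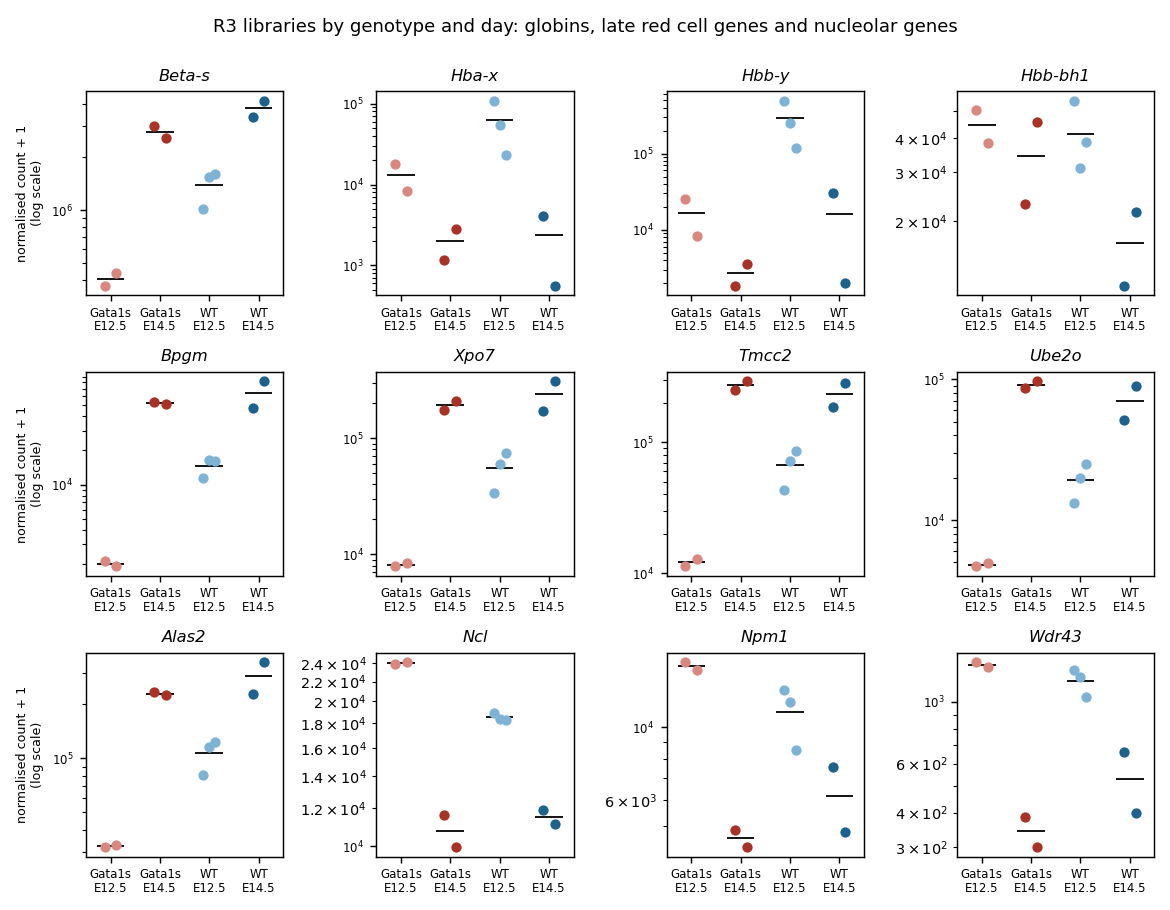
Normalised counts plus 1, on a log axis, of 12 genes in each R3 library, 1 point per library, with the group mean as a bar. In both genotypes the means of Beta-s, Bpgm, Xpo7, Tmcc2, Ube2o and Alas2 are higher at E14.5 and those of Ncl, Npm1 and Wdr43 lower, and the embryonic globins spread widely within a group.

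Regulators of the globin switch moved both ways, 10 higher and 6 lower of 20 tested (median 0.15). Over all genes 35.7% were higher and 32.2% lower, the latter near the share of these regulators. Bcl11a, a repressor of embryonic globins, had 1236 and 1067 normalised counts at E12.5 and 472 and 331 at E14.5. It fell by 1.54 ± 0.14 (adjusted p = 1.04e-07), and its change differed from that of wild type by -0.81 ± 0.18 (adjusted p = 0.00468). Klf1, the activator of adult beta globin, had 6159 and 5824 normalised counts at E12.5 and 13950.3 and 14151 at E14.5, against wild type means of 13489.9 and 19312. It rose by 1.23 ± 0.12 (adjusted p = 2.94e-07), 0.69 ± 0.16 more than in wild type (adjusted p = 0.00576), a difference not called with quantile normalisation (adjusted p = 0.127) or scaling to the library total (adjusted p = 0.0723). Sox6, a partner of Bcl11a, rose from 5479.6 and 5455 to 19272 and 20320.2, a difference of 1.86 ± 0.24, and Zbtb7a, a further globin repressor, from 2346 and 2462 to 4705 and 4995, a difference of 1.01 ± 0.13 that scaling to the library total left uncalled (adjusted p = 0.435). Myb, a progenitor factor, had overlapping days and no call (-0.11 ± 0.23, adjusted p = 0.691).

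GATA1 and the factors that work with it were mostly higher at E14.5. Of 18 tested members 13 were called higher and 3 lower, with a median of 0.82 that scaling to the library total turned to -0.084. Gata1 itself had 7763 and 7643 normalised counts at E12.5 and 14197 and 13744 at E14.5. It rose by 0.86 ± 0.08 (adjusted p = 3.47e-07), a change that quantile normalisation set to 0.0027 and scaling to the library total to -0.043. In wild type R3 it rose by 0.30 ± 0.08, and the changes differed by 0.56 ± 0.12 (adjusted p = 0.00253), a call that both scalings ended (adjusted p = 0.216 and 0.0823). A single value per gene is no check of the short form.

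Tal1, a partner of GATA1 on DNA, rose from 18852 and 19831 to 42717 and 47369.9 (1.22 ± 0.11), a call that quantile normalisation ended (adjusted p = 0.194). Lmo2, which bridges Tal1 and GATA1, rose from 4778 and 4639 to 11664 and 12333 (1.35 ± 0.12). Zfpm1, which encodes the cofactor FOG1, had 4823 and 5151 normalised counts at E12.5 and 10860.0 and 10706 at E14.5 and rose by 1.11 ± 0.13, not called with scaling to the library total (adjusted p = 0.131). Nfe2, an activator of globin genes, rose from 7204 and 6918 to 24622 and 27820.1 (1.89 ± 0.14), and E2f2, a cell cycle factor of late erythroblasts, from 10735 and 10634 to 40770.3 and 45393 (2.01 ± 0.18). Each of these had both E14.5 libraries above both E12.5 libraries. Gata2, the progenitor factor that GATA1 silences, had 289 and 211 normalised counts at E12.5 and 384 and 447 at E14.5, higher in each later library but not called (0.74 ± 0.41, adjusted p = 0.115). It was called when the groups compared were fitted alone (adjusted p = 0.00527), and scaling to the library total turned it to -0.16. Its wild type R3 values were 11.5 ± 1.21 (SD, n = 3) at E12.5 and 12.9 ± 1.83 (SD, n = 2) at E14.5, so the Gata1s libraries lay above every wild type library on both days, a difference between genotypes that was not tested.

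Heme synthesis genes rose together. Of 29 tested, 23 were higher and 2, Tmem14c and Mfsd7b, lower, with a median of 1.01 against 0.62 in wild type R3. Alas2, the first and rate-limiting enzyme of erythroid heme synthesis, had 31936 and 33005 normalised counts at E12.5 and 232715 and 224479 at E14.5. It rose by 2.82 ± 0.38 (adjusted p = 7.81e-06). Fech, which sets the iron into the porphyrin ring, had 33614 and 34038 normalised counts at E12.5 and 134192 and 141169.6 at E14.5 and rose by 2.02 ± 0.18 (adjusted p = 1.35e-07). Slc25a39, a mitochondrial carrier, rose from 8084 and 8448 to 51855 and 52074 (2.65 ± 0.16). The iron-sulfur cluster genes Isca1 and Glrx5 rose by 1.82 ± 0.13 and 1.46 ± 0.13, and the biliverdin reductase Blvrb by 1.83 ± 0.16. None of these genes overlapped between days.

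Iron handling was mixed. Of 17 tested genes 10 were higher and 4 lower, beside 35.7% and 32.2% over all genes. The median of 0.30 turned to -0.24 with quantile normalisation and -0.60 with scaling to the library total. Ncoa4, which carries ferritin to its breakdown, had 21846 and 23633 normalised counts at E12.5 and 129251 and 142498 at E14.5 and rose by 2.58 ± 0.16 (adjusted p = 4.25e-09). The ferritin chains rose with it, Ftl1 by 2.39 ± 0.15 and Fth1 by 1.86 ± 0.18, the latter not called with quantile normalisation (adjusted p = 0.132). Slc11a2, which moves iron out of the endosome, rose by 1.13 ± 0.08. Tfrc, whose product CD71 was used to sort the cells, rose from 57168 and 57890.4 to 104349 and 102073 (0.84 ± 0.10), a direction turned by quantile normalisation (-0.73) and by scaling to the library total (-0.059).

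The membrane skeleton was built up further at E14.5 in its transcripts. Of 21 tested members of the list 18 were higher, 17 of them at least 2-fold, with a median of 1.58 against 0.76 in wild type. The 1 member called lower, Pa2g4, is not a gene of the membrane skeleton. Tmcc2, a membrane protein of the list, had 11246 and 12916 normalised counts at E12.5 and 251488 and 291129 at E14.5 and rose by 4.49 ± 0.27 (adjusted p = 3.41e-09). Epb4.1, protein 4.1, which ties spectrin to actin, had 24673 and 24718 normalised counts at E12.5 and 223927 and 227222 at E14.5 and rose by 3.19 ± 0.21 (adjusted p = 5.26e-09). Its membrane partner Mpp1 rose from 1606 and 1789 to 14385 and 14159 (3.07 ± 0.19). The days did not overlap for any of these 3 genes.

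Slc4a1, band 3, the anion exchanger that anchors the skeleton, had 158368 and 158862 normalised counts at E12.5 and 656577 and 660792 at E14.5 and rose by 2.05 ± 0.34 (adjusted p = 6.23e-05). Ank1, ankyrin, rose by 1.52 ± 0.15 and Stom, stomatin, by 1.76 ± 0.15. Quantile normalisation ended the calls of Slc4a1 and Ank1 (adjusted p = 0.102 and 0.182). Of the surface antigens and channels 28 of 35 were higher and 4 lower, with a median of 1.26. Slc16a1, a lactate transporter, rose from 3943 and 4165 to 18047 and 17667 (2.14 ± 0.09). Genes whose human counterparts carry blood group antigens rose too, Rhag by 1.55 ± 0.13, Ermap by 1.54 ± 0.12, Icam4 by 1.33 ± 0.14 and Darc by 2.09 ± 0.26. Darc reached 1866 and 1864 at E14.5, below the wild type mean of 2879 at E12.5 and of 5339 at E14.5.

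Genes of late maturation and nuclear condensation showed the same direction. Of 54 tested 48 were higher and 1, Hdac2, was lower, with a median of 1.60 against 0.78 in wild type. Xpo7, a nuclear exporter needed for the condensation of mouse erythroblast nuclei, had 7857 and 8462 normalised counts at E12.5 and 174115 and 208577 at E14.5. It rose 23.4-fold (4.55 ± 0.32, adjusted p = 1.22e-08). Ube2o, an enzyme that marks reticulocyte proteins for removal, had 4681 and 4934 normalised counts at E12.5 and 86117 and 96353 at E14.5 and rose by 4.24 ± 0.25 (adjusted p = 3.18e-09). Bpgm, which makes the bisphosphoglycerate that loosens oxygen from hemoglobin, had 2105 and 1886 normalised counts at E12.5 and 54131 and 51912 at E14.5. Its 26.6-fold rise (4.73 ± 0.32, adjusted p = 7.66e-09) put it among the genes with the greatest changes. Mxd1, which opposes Myc at their shared partner Max, rose from 1896 and 2214 to 14205 and 17298 (2.93 ± 0.17). Alox15, a lipoxygenase of reticulocytes, rose from 128 and 94.6 to 420.4 and 364 (1.82 ± 0.47), not called with scaling to the library total (adjusted p = 0.084).

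Autophagy genes rose, 28 of 38 tested, with 6 lower and a median of 1.28. Ulk1, the kinase that starts autophagy, had 1597 and 1702 normalised counts at E12.5 and 11347 and 13413 at E14.5 and rose by 2.90 ± 0.15 (adjusted p = 1.02e-09). Bnip3l, the receptor through which reticulocytes clear mitochondria, rose from 11095 and 11064 to 57228 and 60252 (2.41 ± 0.19). Atg14 rose by 2.89 ± 0.15, Gabarapl2 by 2.84 ± 0.16 and the cargo receptor Nbr1 by 1.99 ± 0.13. Ubiquitin-conjugating enzymes were higher for 17 and lower for 5 of 28, with a median of 0.30 that scaling to the library total turned to -0.60. After Ube2o, Ube2h had the greatest rise, from 3122 and 3045 to 30570.4 and 37448 (3.46 ± 0.27), and Ube2b rose by 2.71 ± 0.17 and Ube2l6 by 2.58 ± 0.31. Proteasome genes had no such lean, with 18 higher and 12 lower of 45 (median 0.10), beside 35.7% and 32.2% over all genes. Among them, Psme3, an activator of the proteasome, rose from 9978 and 10454 to 38071 and 41524 (1.96 ± 0.13).

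Antioxidant enzymes rose in 26 of 33 cases and fell in 2, with a median of 1.05. Gpx1, the main glutathione peroxidase of red cells, had 35879.7 and 33704 normalised counts at E12.5 and 249574 and 277272 at E14.5 and rose by 2.92 ± 0.18 (adjusted p = 3.41e-09). Cat, catalase, rose from 6849 and 7230.3 to 44554 and 43421 (2.64 ± 0.18) and Prdx2, a red cell peroxiredoxin, from 42513 and 40136 to 147490.0 and 160886 (1.90 ± 0.17). Gclm, of glutathione synthesis, rose by 1.85 ± 0.12, and Bach1, a repressor that heme inactivates, by 1.94 ± 0.14. Of 10 tested Bcl2 family genes 4 were higher and 3 lower (median 0.09), beside 35.7% and 32.2% over all genes. Among survival genes, Bcl2l1, which encodes Bcl-xL, had 3070.0 and 3165 normalised counts at E12.5 and 37385 and 42561 at E14.5 and rose by 3.68 ± 0.26 (adjusted p = 1.4e-08). Mcl1 rose by 1.14 ± 0.07. The death genes parted, Bbc3 rising from 142 and 225 to 745 and 994 (2.26 ± 0.42) and Bid falling from 144 and 118 to 66.4 and 37.7 (-1.36 ± 0.25).

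**Figure D2:**
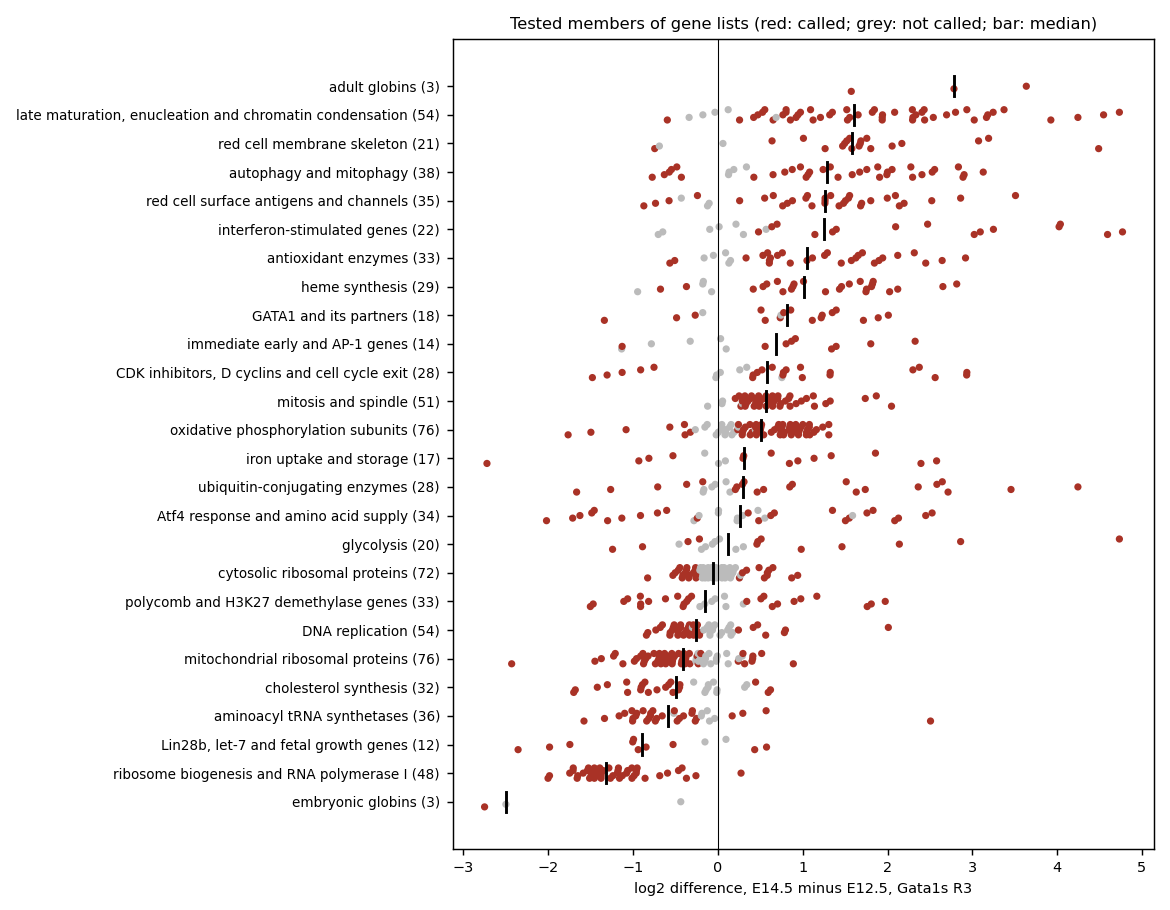
Log2 differences, E14.5 minus E12.5 in Gata1s R3, of the tested members of 26 gene lists, 1 point per gene, red where called, with the list median as a bar and the number tested in parentheses. The medians of late maturation (1.60) and the membrane skeleton (1.58) lie well above 0, and that of ribosome biogenesis (-1.32) well below.

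Transcripts of ribosome production genes fell almost throughout. Of 48 tested genes 47 were lower, 36 of them at least 2-fold, and 1, Ubtf, was higher, with a median of -1.32 against -0.83 in wild type R3. Ncl, nucleolin, had 23907 and 24120.2 normalised counts at E12.5 and 11605 and 9957 at E14.5 and fell by 1.16 ± 0.09 (adjusted p = 3.57e-08). Npm1, nucleophosmin, had 15799 and 14945 normalised counts at E12.5 and 4871 and 4305 at E14.5 and fell by 1.75 ± 0.19 (adjusted p = 1.01e-06). Both later libraries of each gene lay well below the earlier ones. Fbl, the methylase fibrillarin, fell from 1897 and 1883 to 899.8 and 832 (-1.13 ± 0.14), and Wdr43, of the small subunit processome, from 1387 and 1333 to 384 and 299 (-2.00 ± 0.17). Noc4l, also of small subunit assembly, fell by 1.51 ± 0.12 and Rrn3, a factor of RNA polymerase I, fell by 1.06 ± 0.08. Myc, which drives ribosome genes, had 434 and 442 normalised counts at E12.5 and 251 and 159 at E14.5 and fell by 1.13 ± 0.28 (adjusted p = 0.00213).

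Genes of mitochondrial ribosomes and of tRNA charging were lower by smaller medians. Mitochondrial ribosomal proteins were lower for 49 and higher for 8 of 76 (median -0.41), with Mrps18b falling from 552 and 494 to 195 and 186 (-1.45 ± 0.14) and Mrpl12 from 812 and 883 to 402 and 377 (-1.12 ± 0.14). Aminoacyl tRNA synthetases were lower for 26 and higher for 4 of 36 (median -0.59), such as Yars2 (-1.58 ± 0.13) and Dars (-1.01 ± 0.10). Cytosolic ribosomal proteins had no such lean, with 11 higher and 18 lower of 72 (median -0.06), shares below the 35.7% and 32.2% over all genes, and none called at least 2-fold. Fars2, the mitochondrial phenylalanine synthetase, went against its list and rose from 525 and 407 to 2751 and 2519 (2.51 ± 0.22). Subunits of oxidative phosphorylation were higher for 52 and lower for 7 of 76, with a median of 0.50 that scaling to the library total turned to -0.40. Cox6a1 (1.31 ± 0.12) and Ndufb11 (1.31 ± 0.13) were among those that rose and Atp5g2 (-1.50 ± 0.14) among those that fell.

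Sterol synthesis genes were lower for 19 and higher for 3 of 32 tested (median -0.50). Idi1, of isoprene synthesis, fell by 1.07 ± 0.14 and Lss, which closes the sterol rings, fell by 1.42 ± 0.20. Glycolysis genes were higher for 8 and lower for 4 of 20, the first a share near that over all genes. Their median of 0.12 turned to -0.049 with no filter on low values, -0.21 with quantile normalisation and -0.79 with scaling to the library total. Ldha, lactate dehydrogenase A, had 9451 and 9452 normalised counts at E12.5 and 4005 and 3989.7 at E14.5 and fell by 1.24 ± 0.19, and Pfkm, a phosphofructokinase, fell by 0.89 ± 0.12.

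Mitosis genes and replication genes parted. Of 51 mitosis and spindle genes 47 were higher and 0 lower, with a median of 0.57 (wild type 0.50) that quantile normalisation turned to -0.047 and scaling to the library total to -0.33. Nusap1, a spindle protein, had 3954 and 3967 normalised counts at E12.5 and 14385 and 18620.4 at E14.5 and rose by 2.05 ± 0.22 (adjusted p = 9.81e-07). Cdc25b, a phosphatase of mitotic entry, rose by 1.87 ± 0.22 and Ect2, of cytokinesis, by 1.13 ± 0.12. Of 54 replication genes 31 were lower and 7 higher (median -0.26), beside 32.2% and 35.7% over all genes. In wild type R3 3 of them were lower and 14 higher (median 0.07), beside 21.6% and 25.7% over all genes. The 14 were a share near that over all genes. The difference between the day changes was called lower in Gata1s for 24 and higher for 1 of the 54, beside 10.3% lower and 17.5% higher over all genes.

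Rfc4, a loader of the replication clamp, had 2336 and 2248 normalised counts at E12.5 and 1349.7 and 1209.6 at E14.5. It fell by 0.84 ± 0.09 (adjusted p = 6.49e-07), with 0.02 ± 0.08 in wild type and a difference between genotypes of -0.86 ± 0.12 (adjusted p = 0.000203). The polymerase subunit Pold1 fell from 1364 and 1379 to 844 and 867 and differed from wild type by -0.68 ± 0.10 (adjusted p = 0.000311). Pole2, another polymerase subunit, fell from 1032 and 977 to 645 and 630.4 and differed by -0.68 ± 0.11 (adjusted p = 0.000436). The clamp itself, Pcna, was not called (-0.13 ± 0.08, adjusted p = 0.179) although edgeR (adjusted p = 0.0497), DESeq2 (adjusted p = 0.0451), voom (adjusted p = 0.0247), quantile normalisation (adjusted p = 5.38e-07) and scaling to the library total (adjusted p = 1.16e-07) each called it lower. Nor in limma was the helicase subunit Mcm2 (0.12 ± 0.08, adjusted p = 0.203), which quantile normalisation turned to -0.69 and scaling to the library total to -0.79. Ccna2, cyclin A, rose by 0.80 ± 0.10, turned by the same 2 scalings to -0.067 and -0.11.

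Genes of cell cycle exit were higher for 17 and lower for 5 of 28 tested, with a median of 0.58 that scaling to the library total turned to -0.32. Cdkn1b, the inhibitor p27, had 1129 and 1185 normalised counts at E12.5 and 6276 and 7438 at E14.5 and rose by 2.56 ± 0.17 (adjusted p = 6.05e-09). Ccng2, a cyclin of resting cells, rose from 366 and 355 to 2603 and 2926 (2.93 ± 0.26), and Mxi1, a further Max partner, from 1764 and 1809 to 8456 and 9151 (2.30 ± 0.14). Of 26 tested cytokine signalling genes 11 were higher and 5 lower (median 0.13), beside 35.7% and 32.2% over all genes. Among them, Pim1, a survival kinase, rose from 8356 and 8688 to 32919 and 32359 (1.94 ± 0.15) and Jak2, the kinase of the erythropoietin receptor, by 1.10 ± 0.12 (adjusted p = 0.074 with scaling to the library total). The receptor Epor rose by 0.62 ± 0.10, which quantile normalisation turned to -0.14 and scaling to the library total to -0.28. Podxl, a surface protein of progenitors, fell from 1267 and 1683 to 343 and 353 (-2.07 ± 0.25).

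Interferon-stimulated genes rose. Of 22 tested, 15 were higher and 0 lower (median 1.25), and in wild type R3 14 were higher and 0 lower. Rsad2, the antiviral protein viperin, had 166 and 130.3 normalised counts at E12.5 and 3348 and 4863 at E14.5. It rose by 4.77 ± 0.90 (adjusted p = 0.000213), and by 3.78 ± 0.82 in wild type. Isg20 rose from 131 and 163 to 1434 and 997 (3.02 ± 0.29) and Isg15 from 78.2 and 98.8 to 623 and 921 (3.09 ± 0.67). Usp18, which holds the pathway in check, rose by 3.25 ± 0.38 from 7 and 10 reads at E12.5, and Ifit1 rose from 5 and 4 to 22 and 53 reads. Irf9, a transcription factor of the pathway, rose by 1.35 ± 0.16. Of the 22 genes, the day change of Isg20 was called as differing from wild type (-1.25 ± 0.40, adjusted p = 0.029), and that of the other genes was not called. The Isg20 call was lost without E12.5 replicate 2 (adjusted p = 0.102) or E14.5 replicate 2 (adjusted p = 0.129) of Gata1s, without E12.5 replicate 3 (adjusted p = 0.0746) or E14.5 replicate 2 (adjusted p = 0.115) of wild type, and with the replicate block over all 20 libraries (adjusted p = 0.0759).

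Fetal growth genes fell in part. Of 12 tested members of the Lin28b and fetal growth list 8 were lower and 2 higher (median -0.89). Lin28b, which blocks the ripening of let-7 microRNAs, had 1597 and 1699.6 normalised counts at E12.5 and 955 and 878 at E14.5. It fell by 0.85 ± 0.07 (adjusted p = 4.73e-08), and its change differed from that of wild type by -0.59 ± 0.09 (adjusted p = 0.000463). Igf2bp1, an RNA-binding protein of fetal cells, fell from 372 and 374 to 103 and 119 (-1.74 ± 0.25), and Igf2bp3 from 249 and 248 to 177 and 167 (-0.53 ± 0.15), the latter not called with quantile normalisation (adjusted p = 0.06). Grb10, an imprinted brake on growth, fell by 0.94 ± 0.09, while in wild type it fell by 1.53 ± 0.09 (difference 0.59 ± 0.13, adjusted p = 0.00344, but 0.549 with quantile normalisation and 0.248 with scaling to the library total).

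The imprinted genes Igf2, H19 and Peg3, which other fetal liver cells also express, fell beside the hepatoblast markers. Igf2, a growth factor, fell from 196 and 102 to 29.5 and 24.2 (-2.36 ± 0.57), not called without the prefix term (adjusted p = 0.0584), and Peg3 fell from 334 and 303 to 107 and 59.3 (-1.98 ± 0.29). H19, a noncoding RNA, fell from 9560.0 and 7491 to 4012 and 4499 (-0.99 ± 0.29), a call lost without E12.5 replicate 1 (adjusted p = 0.0654). All 3 hepatoblast markers tested fell: Afp, alpha-fetoprotein, from 892 and 483 to 59 and 21.6 (-4.16 ± 0.58), Alb, albumin, from 489 and 351 to 73.8 and 21.6 (-3.34 ± 0.53) and Trf, transferrin, from 329 and 139 to 36.9 and 26.9 (-2.72 ± 0.41). The summed level of the 21 hepatoblast markers was 2331 and 1214 at E12.5 and 232 and 121 at E14.5, with 1 of them at 0 in all 4 libraries. At E14.5 3 reads equalled 11.1 and 8.08 normalised counts. The later values of Igf2, Afp, Alb and Trf therefore rested on few reads. The part of hepatoblasts in the falls of Igf2, H19 and Peg3 was not tested.

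Most markers of other cells were low. With 3 reads equal to 11.1 and 8.08 normalised counts at E14.5, later values near these rest on few reads. Of 7 tested macrophage markers 4 rose, Ctsb, Hmox1, Slc40a1 and Dnase2a, of which Hmox1 and Slc40a1 also stand in the heme and iron lists, and 1, Mrc1, fell from 184 and 75.4 to 25.8 and 21.6 (-2.27 ± 0.76), a call lost without E12.5 replicate 1 (adjusted p = 0.141) or E14.5 replicate 2 (adjusted p = 0.0664). The 27 macrophage markers summed to 16174 and 15710.2 at E12.5 and 61757 and 67445 at E14.5, of which Ctsb, a lysosomal protease gene not specific to macrophages, made up 13675 and 13972 and 58239 and 63515. Of the 27, 10 were lower and 7 higher in both later libraries than in both earlier ones. The same count gave 17 lower and 0 higher of the 21 hepatoblast markers. The share over all genes is not given for such counts, here and for the lists below, so no excess is read from them. Csf1r, the receptor of a macrophage growth factor, had 262 and 74.1 at E12.5 and 55.3 and 48.5 at E14.5 and was not called. The complement gene C1qb had 61 and 39.8 at E12.5 and 7.38 and 10.8 at E14.5, C1qa had 40.3 and 9.6 at E12.5 and 18.4 and 8.08 at E14.5, and Emr1, the macrophage antigen F4/80, had 65.6 and 26.1 at E12.5 and 11.1 and 24.2 at E14.5. The 26 neutrophil and monocyte markers, 1 of them at 0 in all 4 libraries, summed to 1149.5 and 494 at E12.5 and 1475 and 1021 at E14.5, and none of 6 tested was called. Of the 26, 0 were lower and 10 higher in both later libraries than in both earlier ones. Some of these rest on few reads. Retnlg had 0 and 0 at E12.5 and 3.69 and 2.69 at E14.5, a single read in each later library. The 17 endothelial markers, 2 at 0, summed to 469 and 324 at E12.5 and 236 and 237 at E14.5. Of 3 tested, 2 fell and 1 rose. Stab1, of liver sinusoids, fell from 252 and 91.9 to 25.8 and 18.9 (-2.73 ± 0.51), and Egfl7 from 89.8 and 86.4 to 25.8 and 24.2. Kdr rose from 38.0 and 12.3 to 118 and 105. Of the 17, 7 were lower and 3 higher in both later libraries. The 15 mast, basophil and eosinophil markers, 6 at 0, summed to 709 and 342 at E12.5 and 645 and 638 at E14.5, and the 20 lymphoid markers, 15 at 0, to 17.3 and 9.6 at E12.5 and 18.4 and 10.8 at E14.5. The 12 erythroblast markers, which check the sort's label, summed to 401847 and 403515 at E12.5 and 1443430.2 and 1471223 at E14.5 and were all called higher. The part of other cells in the interferon rise and in the other results was not tested.

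RNA of female and male embryos was present in each library. Xist, made from the inactive X, fell from 9113 and 10837 to 4735 and 4246 (-1.15 ± 0.31, adjusted p = 0.00366). Of the Y genes tested 3 rose, Ddx3y from 927 and 881 to 1501 and 1646 (0.80 ± 0.23), Eif2s3y by 0.65 ± 0.21 and Uty by 0.70 ± 0.27, which scaling to the library total turned to -0.10, -0.25 and -0.20. Kdm5d, also on the Y, had 224 and 222 normalised counts at E12.5 and 162 and 221 at E14.5 and was not called (-0.24 ± 0.29, adjusted p = 0.484). The call of Ddx3y was lost with quantile normalisation (adjusted p = 0.112) and without the prefix term (adjusted p = 0.112). The call of Eif2s3y was lost without E12.5 replicate 1 (adjusted p = 0.0653) or E14.5 replicate 1 (adjusted p = 0.081), with quantile normalisation (adjusted p = 0.116) and without the prefix term (adjusted p = 0.123). That of Uty was lost in edgeR (adjusted p = 0.056), in voom (adjusted p = 0.0888), without the prefix term (adjusted p = 0.0825), with no filter on low values (adjusted p = 0.053), with the replicate block over all 20 libraries (adjusted p = 0.0535), and without E12.5 replicate 2 (adjusted p = 0.187), E14.5 replicate 1 (adjusted p = 0.0993) or E14.5 replicate 2 (adjusted p = 0.0757). The wild type R3 directions were opposite, 0.84 ± 0.28 for Xist and -0.63 ± 0.21 for Ddx3y. The part of a changed share of the sexes in other results was not tested.

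**Figure D3:**
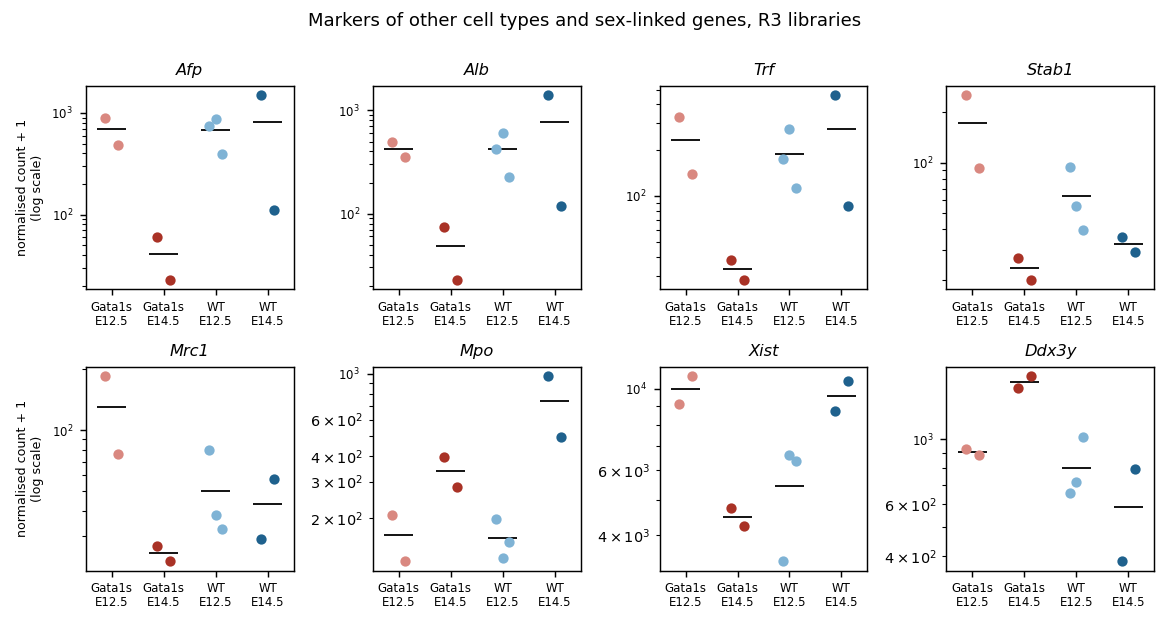
Normalised counts plus 1, on a log axis, of markers of other cell types and of sex-linked genes in each R3 library, with the group mean as a bar. Both Gata1s E14.5 libraries lie below every other R3 library for Afp, Alb and Trf, and within Gata1s Xist is lower and Ddx3y higher at E14.5.

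The genotypes differed in the size of the day change. A test of the difference called 1497 genes (17.5%) higher and 883 (10.3%) lower in Gata1s than in wild type R3, libraries that are not shared between the comparisons. Quantile normalisation gave 1055 higher and 1365 lower, and scaling to the library total 715 and 2600. The prefix is MS throughout Gata1s R3, and JC in 3 of the 5 wild type R3 libraries. The fit holds a term for the prefix, and among MS libraries alone, with 1 wild type R3 library per day, 1646 were higher and 839 lower. The count moved with single libraries of both genotypes: it was 1004 higher and 508 lower when E14.5 replicate 1 of wild type was left out, 1004 and 599 without Gata1s E14.5 replicate 2, and 1796 and 1415 with wild type E14.5 replicate 2 left out. Of the 3061 genes that rose in Gata1s, 1929 also rose in wild type, 63.0% of the Gata1s list and 87.4% of the wild type list. Of the 2764 that fell, 1438 also fell in wild type, 52.0% and 77.5% of the lists.

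Most genes that change at least 2-fold as wild type cells mature moved the same way between the days in Gata1s R3. From R1/2 to R3 in wild type at E12.5, in libraries apart from the 4 compared here, 1813 genes (21.1%) rose and 1307 (15.2%) fell at least 2-fold. Of the 1813, 81.1% rose and 1.88% fell between the days in Gata1s R3 (median difference 1.11). Of the 1307, 75.6% fell and 3.83% rose (median -0.91). The other 5456 genes had a median of -0.05, with 28.2% that rose and 31.9% that fell.

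**Figure D4:**
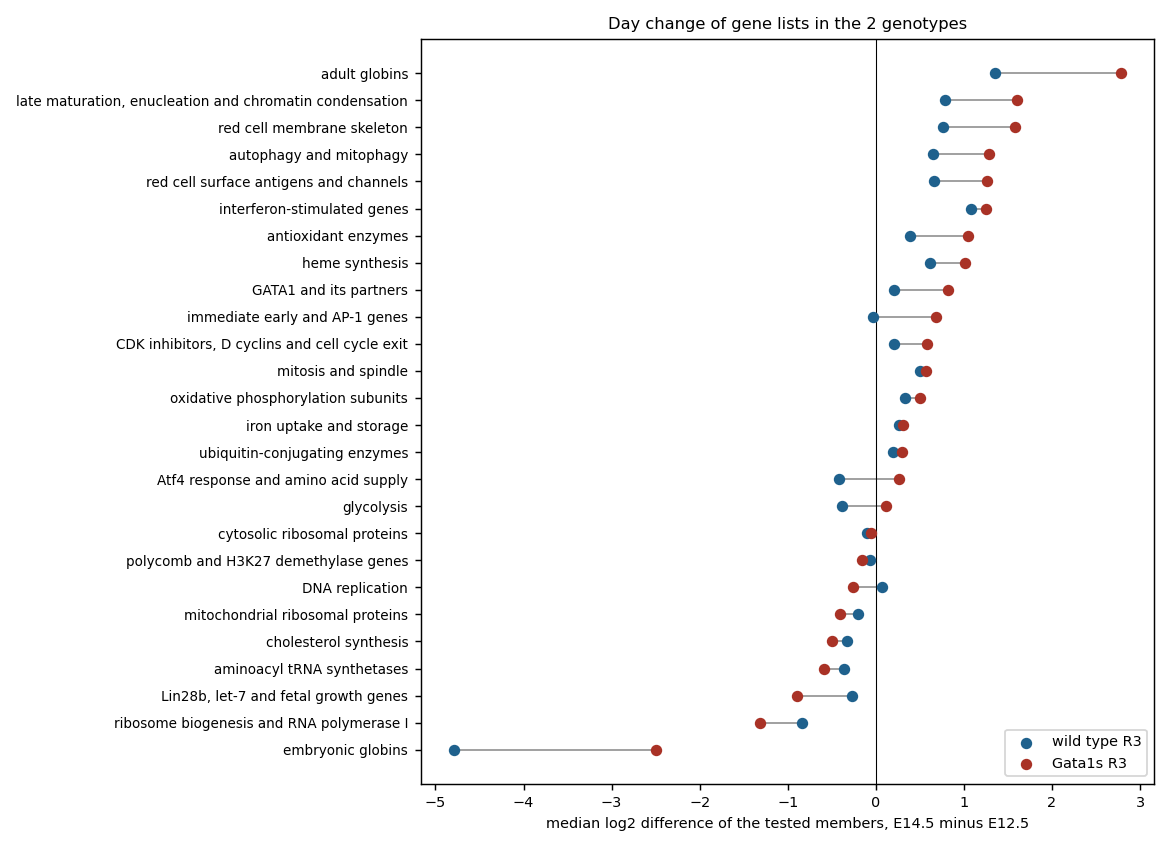
Median log2 difference, E14.5 minus E12.5, of the tested members of each gene list in Gata1s R3 (red) and wild type R3 (blue). Gata1s lies farther from 0 for the membrane skeleton (1.58 against 0.76), late maturation (1.60 against 0.78) and ribosome biogenesis (-1.32 against -0.83), and nearer 0 for embryonic globins (-2.50 against -4.79). The difference between genotypes was called for none of the 3 embryonic globins.

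For the late red cell genes named here, both Gata1s libraries of E12.5 lay below every wild type library of that day. Xpo7 stood at 55712 ± 20534 (SD, n = 3) at E12.5 and 240090.2 ± 96002 (SD, n = 2) at E14.5 in wild type, where it rose by 2.02 ± 0.30, and the changes differed by 2.53 ± 0.44 (adjusted p = 0.000796). Bpgm stood at 14729 ± 2829.9 (SD, n = 3) at E12.5 and 64422 ± 24069.5 (SD, n = 2) at E14.5 and differed by 2.69 ± 0.44 (adjusted p = 0.000509). At E14.5 the Gata1s values of both genes lay within the wild type range. Tmcc2 differed by 2.78 ± 0.37 (adjusted p = 0.000142), Ube2o by 2.47 ± 0.34 (adjusted p = 0.000204) and Bcl2l1 by 2.11 ± 0.36 (adjusted p = 0.000722).

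Further genes of this kind were Slc2a1, Sowaha and Loxl2. Slc2a1, a glucose transporter, rose from 12074 and 13174 to 87113 and 96472 (2.86 ± 0.28), against wild type means of 50076 and 100635, and differed by 1.88 ± 0.38 (adjusted p = 0.0024). Sowaha had 517 and 449.9 normalised counts at E12.5 and 10617 and 12481 at E14.5 and rose by 4.57 ± 0.27, and by 2.26 ± 0.24 in wild type. Loxl2, a lysyl oxidase, had 206 and 252 normalised counts at E12.5 and 2578 and 4828 at E14.5 and rose by 3.95 ± 0.31, with 0.92 ± 0.29 in wild type and a difference of 3.02 ± 0.42 (adjusted p = 0.000208).

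Some genes rose in Gata1s and fell in wild type R3, 80 of the 3061 that rose, while 24 of the 2764 that fell rose in wild type. Slc7a11, the cystine importer that feeds glutathione synthesis, had 1029 and 649 normalised counts at E12.5 and 3961 and 5043 at E14.5 in Gata1s. It rose by 2.45 ± 0.50 (adjusted p = 0.000467). In wild type it stood at 75.4 ± 55.1 (SD, n = 3) at E12.5 and 8.98 ± 6.02 (SD, n = 2) at E14.5, so every Gata1s library lay above every wild type library. It was called lower in wild type, but the E14.5 libraries there held 8 and 1 reads, so the sizes of that change and of the difference between genotypes depend on the count added before the log and are no bounds. Its membrane partner Slc3a2 rose in both genotypes, by 1.83 ± 0.13 in Gata1s and 0.40 ± 0.12 in wild type.

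Kdm6b, which erases the repressive methyl mark on histone H3 lysine 27, had 283 and 409 normalised counts at E12.5 and 1121 and 1272 at E14.5. It rose by 1.81 ± 0.19 (adjusted p = 5.85e-07) and fell by 0.69 ± 0.17 in wild type, a difference of 2.50 ± 0.26 (adjusted p = 2.94e-05). Slc2a3, a glucose transporter, rose from 2869.8 and 2635 to 7305 and 7872, against wild type means of 1085 and 621, and differed by 2.25 ± 0.19 (adjusted p = 5.49e-06). Bnip3, a mitophagy receptor, rose from 1328 and 1251 to 3326 and 3138, against wild type means of 617 and 405, and differed by 1.91 ± 0.24 (adjusted p = 9.6e-05). Cish, which damps cytokine signals, rose from 1149.5 and 1476 to 3525 and 3133, against 1101 and 711, and differed by 1.98 ± 0.32 (adjusted p = 0.00052), with its rise not called after scaling to the library total (adjusted p = 0.101). In Gata1s each of these 4 genes was higher in both later libraries than in both earlier ones.

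Other genes of this kind rested on single libraries or on the settings. Glrx, glutaredoxin, had 842 and 890.2 normalised counts at E12.5 and 3651 and 964 at E14.5, and its rise of 1.11 ± 0.42 (adjusted p = 0.0282) was lost without E14.5 replicate 1 (0.16, adjusted p = 0.687), without E12.5 replicate 1 (adjusted p = 0.0978) and without E12.5 replicate 2 (adjusted p = 0.0764). It was also lost in voom (adjusted p = 0.0641), with no filter on low values (adjusted p = 0.0531) and with quantile normalisation (adjusted p = 0.0796). The same held over the 9 R3 libraries alone (adjusted p = 0.0614), over the groups compared alone (adjusted p = 0.0537) and with scaling to the library total (adjusted p = 0.648). Itga2b, a platelet integrin, had 1713 and 1399 normalised counts at E12.5 and 2323 and 3138 at E14.5, and its rise of 0.80 ± 0.30 was lost without E12.5 replicate 2 (adjusted p = 0.143) or E14.5 replicate 2 (adjusted p = 0.184) and turned to -0.10 with scaling to the library total. Quantile normalisation ended its call too (adjusted p = 0.339). Aldoa, the glycolytic aldolase, had 10205 and 10697 normalised counts at E12.5 and 13408 and 15404 at E14.5, and its rise of 0.46 ± 0.16 was lost without E12.5 replicate 1 (adjusted p = 0.0811) or E14.5 replicate 2 (adjusted p = 0.129) and turned to -0.39 with quantile normalisation and -0.44 with scaling to the library total. Nor was Aldoa called without the prefix term (adjusted p = 0.0599).

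**Figure D5:**
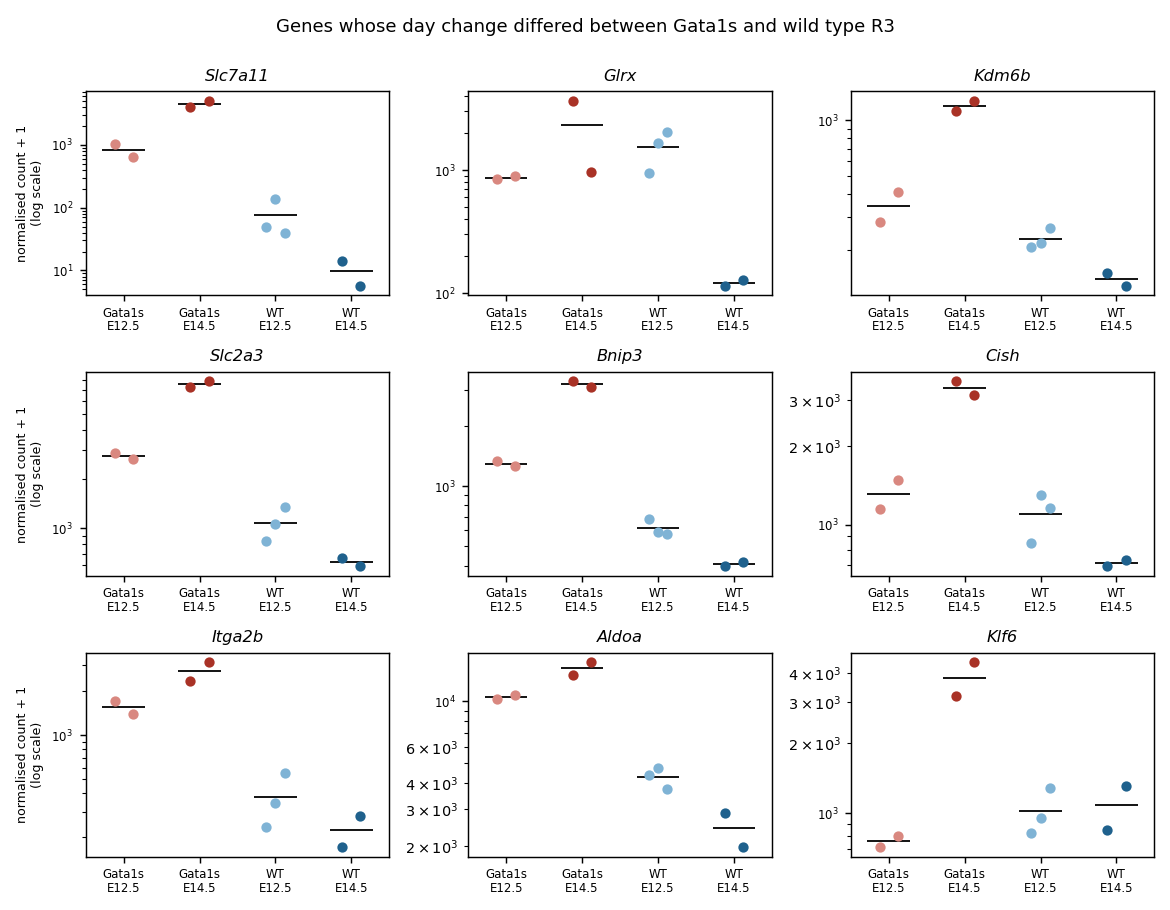
Normalised counts plus 1, on a log axis, of 9 genes in each R3 library, with the group mean as a bar. Slc7a11, Kdm6b, Slc2a3, Bnip3 and Cish are higher at E14.5 than at E12.5 in Gata1s and lower in wild type, while the wild type means of Klf6 are 1015 and 1077.

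Of 14 tested immediate early and AP-1 genes, which cells switch on within minutes of a signal, 8 were higher and 1, Myc, lower, with a median of 0.68 that scaling to the library total turned to -0.22. The difference from wild type was called higher for 3 and lower for 0 of the 14, beside 17.5% and 10.3% over all genes. Klf6, a Krüppel-like factor, had 711 and 796 normalised counts at E12.5 and 3186 and 4469 at E14.5 and rose by 2.33 ± 0.33, 2.32 ± 0.45 more than in wild type (adjusted p = 0.00179). Junb, of the AP-1 factors, rose from 123 and 130.3 to 317 and 353 and differed by 1.71 ± 0.27 (adjusted p = 0.000475).

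The Atf4 and amino acid list held genes that moved both ways. Of 34 tested 13 were higher and 11 lower, shares near the 35.7% and 32.2% over all genes, with a median of 0.26 that quantile normalisation turned to -0.077 and scaling to the library total to -0.64. The difference from wild type was called higher for 14 of the 34 and lower for 0, beside 17.5% and 10.3% over all genes. Atf4, the stress factor itself, rose by 0.48 ± 0.12, which the same 2 scalings turned to -0.27 and -0.42. Eif2ak1, the kinase that raises Atf4 translation when heme is short, had 10340.1 and 10621 normalised counts at E12.5 and 43429 and 48394 at E14.5 and rose by 2.13 ± 0.13. Asns, which makes asparagine and is a known Atf4 target, fell by 0.60 ± 0.16. Sesn2, which senses leucine, rose by 1.76 ± 0.21 and differed from wild type by 1.90 ± 0.28 (adjusted p = 0.000289).

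Of 33 polycomb and H3K27 demethylase genes 11 were higher and 15 lower, beside 35.7% and 32.2% over all genes. Ezh1, an H3K27 methylase of resting cells, rose from 519 and 535 to 1921 and 2233 (1.97 ± 0.17). Ezh2, the methylase of dividing cells, fell from 3487 and 3542 to 3049.7 and 2632 (-0.31 ± 0.08), a call lost without E14.5 replicate 2 (adjusted p = 0.0563). The polycomb gene Bmi1 fell by 1.47 ± 0.16 and Pcgf6 fell by 1.50 ± 0.17. Of 9 tested DNA methylation genes 3 were higher and 3 lower, shares near those over all genes. Among them, the methylase Dnmt3a fell from 142 and 143 to 47.9 and 29.6 (-1.89 ± 0.27) and the oxidase Tet2 fell by 1.78 ± 0.28. Gadd45a, a stress gene linked to DNA demethylation, rose by 2.47 ± 0.21.

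Some of the greatest rises started from a handful of reads. At E12.5 Entpd4, a nucleotidase with a near-identical copy that makes its count uncertain, held 0 and 1 reads, Tecta 4 and 1 and Hey2, a factor downstream of Notch, 2 and 2. At E14.5 they held 17 and 53, 37 and 40 and 19 and 65 reads. With the earlier libraries at or near a floor of 3 reads, no fold is given for them. The falls named next started from more reads. Cpne7, a copine, had 463 and 481 normalised counts at E12.5 and 44.3 and 59.3 at E14.5 and fell by 3.18 ± 0.28 (adjusted p = 8.77e-08). Slc23a2, a vitamin C transporter, fell from 153 and 147 to 14.8 and 29.6 (-2.78 ± 0.31), or to 4 and 11 reads. The 4 reads are near the floor, so the size of this fall is uncertain. Klhdc8b, from 87 and 75 to 4 and 4 reads, and Tead3, a TEA domain factor, from 66 and 80 to 3 and 3 reads, were called lower and stood at or near the floor at E14.5, so their folds are not given either.

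In the less mature R1/2 cells of Gata1s liver the days differed in few genes, 106 (1.24%) called higher and 18 (0.21%) lower. The day change in R3 was called higher than in R1/2 for 2625 genes (30.6%) and lower for 2303 (26.9%), which quantile normalisation turned to 1965 and 2687 and scaling to the library total to 646 and 6016. Bpgm stood at 502 ± 93.2 (SD, n = 4) at E12.5 and 965 ± 263 (SD, n = 3) at E14.5 in R1/2, and the R3 change exceeded that of R1/2 by 3.86 ± 0.41 (adjusted p = 2.04e-06). Xpo7 stood at 1467 ± 72.2 (SD, n = 4) at E12.5 and 2558 ± 138 (SD, n = 3) at E14.5 and differed by 3.85 ± 0.41 (adjusted p = 2.15e-06). Loxl2 stood at 171 ± 17.6 (SD, n = 4) at E12.5 and 150.4 ± 38.6 (SD, n = 3) at E14.5 and differed by 4.21 ± 0.40 (adjusted p = 8.27e-07). For these 3 genes the rise in R3 was far larger than in R1/2.

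The nucleolar genes were high in R1/2 on both days. Ncl stood at 53741 ± 2027 (SD, n = 4) at E12.5 and 50857 ± 3014 (SD, n = 3) at E14.5, and its R3 change differed by -1.07 ± 0.12 (adjusted p = 2.74e-06). Npm1 stood at 54525 ± 1587 (SD, n = 4) at E12.5 and 53219 ± 1839 (SD, n = 3) at E14.5 and differed by -1.73 ± 0.24 (adjusted p = 2.71e-05). Beta-s rose in R1/2 from 9718 ± 3528 (SD, n = 4) to 41337 ± 7177 (SD, n = 3), and the difference between its R3 and R1/2 changes was not called (0.75 ± 0.51, adjusted p = 0.213).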

How the data were processed

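RNA-seq of 20 libraries was used; the 40 chromatin samples were not analysed here. The values are the authors' deposited normalised counts, a signal per gene that per the submitters' processing notes came with TopHat2, HTSeq and DESeq2 (Trim Galore, Bowtie2, mm10 and mm9 are also named; which of them served the RNA is not stated). Dividing by each library's step gave whole reads for 100% of values (tolerance 0.001). Of 23420 table entries 27 that hold dates in place of gene names were left out, and 1 column that matches no sample was not used.

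Genes with a mean of at least 50 normalised counts over the 4 libraries were tested, on log2(value + 1), with limma 3.58.1 in R 4.3.3 (trend on; 11 residual and 4.81 prior degrees of freedom), with a mean per group and a term for the prefix over all 20 libraries, and Benjamini-Hochberg adjustment. Fold changes on this scale understate the change of low genes. A difference between comparisons was tested as a contrast. Alternatives were DESeq2 1.42.0 and edgeR 4.0.16, both on recovered reads, voom, other scalings, filters, pseudocounts, sample sets and left-out libraries. The code was tested on simulated data. The genes named were those with the greatest changes and examples from fixed gene lists. The former had to be without overlap between days, and many of the latter had the smallest adjusted p of their list. Their lack of overlap therefore follows from the choice and adds no support. The members, lists and examples were chosen with earlier results of these data known. Promoters were matched to RefSeq by symbol.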

Additional observations from a re-analysis of the deposited data

Results flagged for a closer look

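The day change in R3 differed by test between Gata1s and wild type for 2380 genes and between R3 and R1/2 of Gata1s for 4928. Of the genes named in the report 117 differed between the genotypes. Genes called in opposite directions in Gata1s and wild type R3 had these log2 differences, Gata1s minus wild type: Slc7a11 differed by 5.19, Glrx by 4.74, Kdm6b by 2.50, Slc2a3 by 2.25, Cish by 1.98, Bnip3 by 1.91, Itga2b by 1.55 and Aldoa by 1.26. The Gata1s rises of Glrx, Itga2b and Aldoa lost their calls in several settings, as given above. The wild type E14.5 libraries held 8 and 1 reads of Slc7a11, and its difference was 4.75 with 5 added before the log and 5.27 with 0.5. The sex-linked genes differed likewise, Xist by -1.99, Uty by 1.46, Ddx3y by 1.43 and Eif2s3y by 1.15.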

How the results depend on the processing

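Genes called between the days in Gata1s R3 numbered 5825, and from 5125 to 5409 when a library was left out. Called at least 2-fold, they numbered 2096 (wild type 633, difference between genotypes 670, difference between R3 and R1/2 1825). Without a library, the count ran from 2078 (without wild type E14.5 replicate 2) to 4284 in wild type, from 1512 to 3211 for the genotypes and from 4207 to 4778 for R3 against R1/2. Scaling to the library total, added after seeing the data, called 6452 genes in wild type and moved wild type by -0.58, the difference between genotypes by -0.32 and that between R3 and R1/2 by -0.87. Of 146 named genes called, 22 lost their call or turned in at least 1 planned setting, as did 55 of the 117 whose day change differed between genotypes.

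Directions turned as follows. Quantile normalisation gave Beta-s 0, Myb 0.23, Tfrc -0.73 (its difference between genotypes -0.090), Mcm2 -0.69, Ccna2 -0.067, Epor -0.14, Aldoa -0.39 and Atf4 -0.27, and medians of -0.24 for iron, -0.21 for glycolysis, -0.047 for mitosis and -0.077 for Atf4 genes. Scaling to the library total gave Gata1 -0.043, Gata2 -0.16, Tfrc -0.059, Mcm2 -0.79, Ccna2 -0.11, Epor -0.28, Itga2b -0.10, Aldoa -0.44, Atf4 -0.42, Ddx3y -0.10, Eif2s3y -0.25 and Uty -0.20, and medians of -0.084 for GATA1 partners, -0.60 for iron, -0.79 for glycolysis, -0.33 for mitosis, -0.32 for cycle exit, -0.64 for Atf4, -0.22 for immediate early genes, -0.40 for oxidative phosphorylation and -0.60 for ubiquitin enzymes. With no filter the glycolysis median was -0.049. Leaving out 1 library at a time, Myb ran from -0.29 (without E12.5 replicate 2) to 0.075 (without E12.5 replicate 1) and Hbb-bh1 from -0.93 (without E14.5 replicate 2) to 0.060 (without E14.5 replicate 1). The causes were not tested beyond the scaling itself.

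Replicate numbers did not pair the samples by the labels, and same-numbered Gata1s R3 libraries deviated together at a correlation of 0.132. A replicate block over all 20 libraries called 5621 genes in Gata1s R3, and 1440 (995 higher, 445 lower) for the difference between genotypes. Depth limits low genes at E14.5, where 3 reads equal 11.1 and 8.08 normalised counts.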
